A study of Mus musculus with 8 samples.

Results

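The genes that build cholesterol and those that sense and carry sterol were followed in whole mouse embryos with altered Meis1 or Prep1. They are 26 genes, looked up by 28 symbols because Msmo1 and Sc5d each have an older one, and Msmo1 is listed under its older symbol Sc4mol. They are defined by gene symbol, with no measured value in the rule, out of 18904 genes in the Meis1 table and 17348 in the Prep1 table. By role there are 6 genes of the mevalonate steps, 2 prenyl synthases, 3 genes from squalene to lanosterol, 9 of the later ring steps, 5 of sterol control and 1 sterol carrier. Messenger RNA came from whole C57BL/6 embryos at embryonic day 11.5. The groups were 3 Meis1 knockout (KO) libraries, 3 of their wild-type (WT) littermates, 1 library of a Prep1 hypomorph (Prep1 is listed as Pknox1) and 1 of its WT littermates. The sources used here do not say how either allele was made, what part of the gene it removes or whether a library holds 1 embryo or several. They also do not say whether the replicates came from separate litters, so a p-value measures only the spread between these libraries.

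Cholesterol is made from acetyl-CoA through mevalonate, the prenyl diphosphates and squalene, which is closed into lanosterol and then trimmed and reduced on the ring. The supply is held steady by SREBP transcription factors, which the escort protein Scap carries out of the endoplasmic reticulum when sterol is scarce and which the Insig proteins hold back when it is plentiful. In the embryo, cholesterol is needed for membranes and is attached to hedgehog proteins, and loss of Dhcr7 in mice and people disturbs development. Meis1 and Prep1 are TALE homeobox transcription factors that bind DNA with Pbx and Hox partners.

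The windows around the start sites of these genes share a feature that the choice of genes did not use. A window of 300 bases, 250 before to 50 after a RefSeq start (GRCm38.p6), was at hand for 22 of the 26 genes, in 30 windows. Fdps, Fdft1, Sqle and Stard4 had none. The letters CCAAT, the core read by NF-Y, a factor known to act beside SREBP, stood on either strand in windows of 20 of the 22 genes, or 90.9%. Of the 9419 genes tested in the Meis1 table that have a window, 43.4% held it, and of all 27025 genes with a window 41.1% did. At least 2 matches in 1 window were found for 12 of the 22 genes, 54.5%, against 16.7% of the tested genes. GGGCGG, a core read by Sp1, was found for 20 of the 22 genes, 90.9%, and for 70.2% of the tested genes. TGACAG, a core bound by Meis and Prep proteins, was found for 8 of the 22 genes, 36.4%, against 19.7% of the tested genes. TGATTGA, a core of Pbx with Hox partners, was found for Scap alone, 4.55%, against 2.42%. TCACNCCAC, a strict form of the sterol response element, was found for Hmgcs1 alone, 4.55%, against 1.44% of all genes with a window. Hmgcs1 was itself not among the tested genes, of which 1.38% held a match. No match of 1 motif overlapped a match of another in these windows. A match says only that the letters are there, and a missing match says nothing of the factor.

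The windows of 5 genes are shown. Mvk, Msmo1 and Insig1 were picked because they lay far from the WT mean in a single KO library. Dhcr7 had the lowest Prep1 ratio, and Scap holds both TALE cores. In the first 4, capitals mark CCAAT or its reverse complement ATTGG. In the Scap window they mark TCAATCA and CTGTCA, the reverse complements of TGATTGA and TGACAG. Dhcr7 has 3 windows and the one shown is the one with CCAAT. That window also holds 1 TGACAG match, which is left in small letters. The windows of Scap overlap each other and hold the same TALE cores.
Mvk (chr5:114444019-114444318, plus strand): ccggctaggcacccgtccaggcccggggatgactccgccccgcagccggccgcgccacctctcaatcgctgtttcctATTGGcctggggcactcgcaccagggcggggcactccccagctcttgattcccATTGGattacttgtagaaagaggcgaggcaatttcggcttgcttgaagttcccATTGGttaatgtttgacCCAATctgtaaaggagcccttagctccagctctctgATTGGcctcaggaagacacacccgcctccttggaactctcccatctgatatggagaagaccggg
Msmo1 (chr8:64733529-64733828, minus strand): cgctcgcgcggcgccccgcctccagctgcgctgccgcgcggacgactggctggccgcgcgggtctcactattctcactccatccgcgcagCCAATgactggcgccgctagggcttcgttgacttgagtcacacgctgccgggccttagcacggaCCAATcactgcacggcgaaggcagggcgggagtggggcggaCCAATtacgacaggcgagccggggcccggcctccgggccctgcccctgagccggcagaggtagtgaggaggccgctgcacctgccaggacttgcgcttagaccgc
Insig1 (chr5:28071162-28071461, plus strand): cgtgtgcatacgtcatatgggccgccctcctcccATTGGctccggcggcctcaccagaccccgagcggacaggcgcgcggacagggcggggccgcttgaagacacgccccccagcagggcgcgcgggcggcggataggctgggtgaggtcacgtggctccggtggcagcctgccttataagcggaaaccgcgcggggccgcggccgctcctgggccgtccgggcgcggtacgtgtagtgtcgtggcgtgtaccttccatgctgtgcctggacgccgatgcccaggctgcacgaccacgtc
Dhcr7 (chr7:143829964-143830263, plus strand): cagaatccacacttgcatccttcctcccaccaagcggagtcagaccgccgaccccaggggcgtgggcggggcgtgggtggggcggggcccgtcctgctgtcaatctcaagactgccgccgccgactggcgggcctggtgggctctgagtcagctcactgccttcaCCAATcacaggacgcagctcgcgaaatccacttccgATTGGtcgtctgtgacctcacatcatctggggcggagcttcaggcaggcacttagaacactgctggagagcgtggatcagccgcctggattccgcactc
Scap (chr9:110333038-110333337, plus strand): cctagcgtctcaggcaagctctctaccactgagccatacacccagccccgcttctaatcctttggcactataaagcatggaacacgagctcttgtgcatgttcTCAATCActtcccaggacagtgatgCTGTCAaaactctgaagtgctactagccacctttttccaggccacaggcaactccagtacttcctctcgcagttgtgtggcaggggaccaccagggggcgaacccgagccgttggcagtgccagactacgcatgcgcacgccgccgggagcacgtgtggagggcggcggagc
Mvk held 5 CCAAT matches, the most of any of the 30 windows, at -173, -120, -67, -50 and -14 from the start. Msmo1 held 3, at -160, -96 and -55, all on the strand of the gene. Dhcr7 held 2, at -85 and -49, and Insig1 held 1, at -216. In Scap the TGATTGA match began at -147 and the TGACAG match at -122. Ebp, which also lay far from the WT mean in a KO library, is not shown. Its window held 2 CCAAT matches and 1 TGACAG match. Whether any match bears on the values below was not tested.

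**Figure D1:**
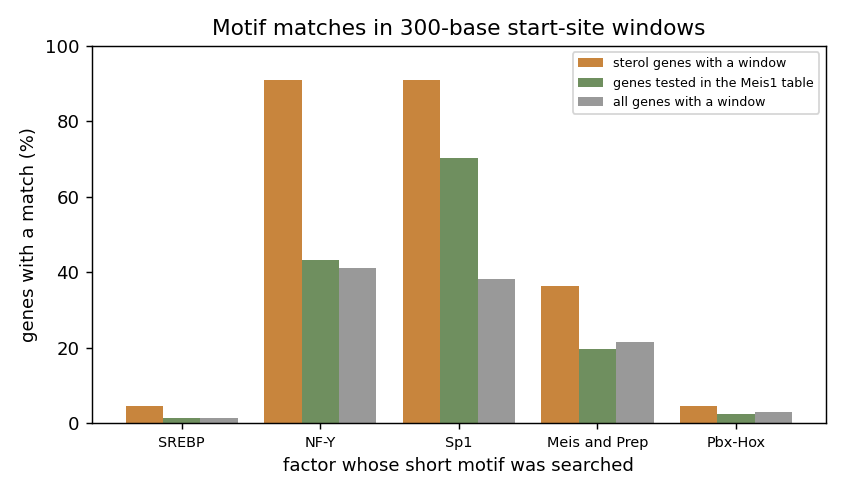
Share of genes (%, vertical axis from 0) with at least 1 match to each short motif in their 300-base start-site windows. Bars show genes with a window: 22 sterol genes, 9419 of the genes tested in the Meis1 table, and all 27025 genes. The NF-Y bar of the sterol genes stands at 90.9%, against 43.4% and 41.1%.

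Counts per Meis1 library were worked back from the deposited group means, and within a group the libraries are lettered from a to c by size. Totals ran from 4233891 to 6209430 counts in the 6 Meis1 libraries and were 4000984 and 5893401 in the Prep1 WT and hypomorph libraries. Meis1 read 92.9, 88.4 and 112.9 CPM (counts put on a common library depth) in WT and 86.8, 68.4 and 71.3 CPM in KO. Its RNA read lower in each KO library but was not lost, and KO a lay close to WT b. The log2 difference was -0.38 (SE 0.16, adjusted p = 0.9999 in edgeR's quasi-likelihood test), so these values do not check the KO labels. Pknox1 read 32.5 CPM in Prep1 WT and 2.36 CPM in the hypomorph. KO library a stood apart: 22 genes induced by low oxygen summed to 9098 CPM in it, against 2101 to 2782 CPM in WT and 2562 to 2749 CPM in the other KO libraries. Results that rest on KO library a are therefore given with and without it.

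In WT embryos nearly all of these genes were detected, at levels that spanned a wide range. All 25 genes with usable counts had counts in every library. The exception was Hmgcs1, which joins acetyl groups into HMG-CoA. Its only entry lies on the unplaced contig NT_110857 (114701 to 132325, minus strand, mm9) and held 0, 0 and 0 counts in WT and 3, 3 and 0 in KO. It did not pass the filter on low counts, it has no row in the Prep1 table, and nothing is read from it here.

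Levels between genes were compared as CPM per kilobase of exon. The length of a gene is the stretch covered by any of its annotated exons in GENCODE M21, over all its transcripts. It can exceed the length of the transcript present, so the order depends in part on the annotation. Lss, for one, read 111 CPM in WT over a length of 10787 bases. Cyp51, the lanosterol demethylase, was highest in WT at 40.9 ± 3.08 CPM per kb (SD, n = 3). Acat2, the cytosolic thiolase that begins the route, followed at 35.7 ± 3.46 (SD, n = 3) and Srebf2, the SREBP gene most tied to cholesterol synthesis, at 33.9 ± 3.76 (SD, n = 3), and the ranges of these neighbours overlapped. Mvk, mevalonate kinase, at 28.8 ± 0.107 CPM per kb (SD, n = 3), stood apart from its neighbours on both sides. Its WT values lay closer together than counting error gives, with a coefficient of variation of 0.37% against 5.16%. The gap to Srebf2, which read 31.3 CPM per kb at its lowest, may therefore be overstated. Pmvk, Lbr and Sqle came next with means between 22.5 and 22.6 CPM per kb and overlapping ranges. A chain of overlapping ranges then ran from Mvd at 20.8 through Nsdhl, Srebf1, Fdft1, Msmo1 and Dhcr7 to Insig1 at 13.3 CPM per kb. Another ran from Lss at 10.3 through Scap, Ebp, Stard4, Tm7sf2 and Ggps1 to Sc5d at 6.95 CPM per kb. Hsd17b7, Insig2 and Fdps lay between 4.82 and 4.66 CPM per kb. Idi1, the isomerase that makes the reactive prenyl unit, was lowest at 1.39 ± 0.193 CPM per kb (SD, n = 3), 29.5-fold under Cyp51. Of the 24 neighbouring pairs in this order, 18 overlapped in their WT ranges. Genes further apart in the order overlapped too, so the chains are not separate tiers. The range of Lbr, 17.9 to 26.7 CPM per kb, spanned that of Mvd. Dhcr7, at 11.5 CPM per kb or more, overlapped Lss, which reached 12.8 CPM per kb. Acat2 has a close neighbouring paralogue, Acat3, which read 94.6, 68.4 and 93.3 CPM in WT, and reads from sequence that both share can be assigned to either.

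The first comparison asks whether these genes differ in embryos labelled Meis1 KO. None of the 25 sterol genes tested passed a false discovery rate of 0.05 in edgeR's quasi-likelihood test. The background was the same, with 0% of the 14437 genes tested passing. DESeq2 called 1 gene, the platelet chemokine gene Ppbp, and limma-voom called 0. None of the 25 genes had an unadjusted p under 0.05 in edgeR, against 1.56% of all genes tested, 1.06% higher and 0.499% lower. The log2 differences, KO minus WT, ran from -0.38 for Ebp to 0.28 for Hsd17b7, with 15 above 0 and 10 below, and their median was 0.02, against -0.00 over all genes. KO and WT libraries did not overlap for 2 of the 25 genes, against 5.68% of all genes tested. These were Fdft1, the 1 gene that was higher, against 3.01%, and Mvk, the 1 that was lower, against 2.67%. edgeR gave each sterol gene an adjusted p of 0.9999. In the authors' deposited table the adjusted p was 1 for all 26 entries. In whole embryos, fewer cells of a type and less RNA per cell cannot be told apart.

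**Figure D2:**
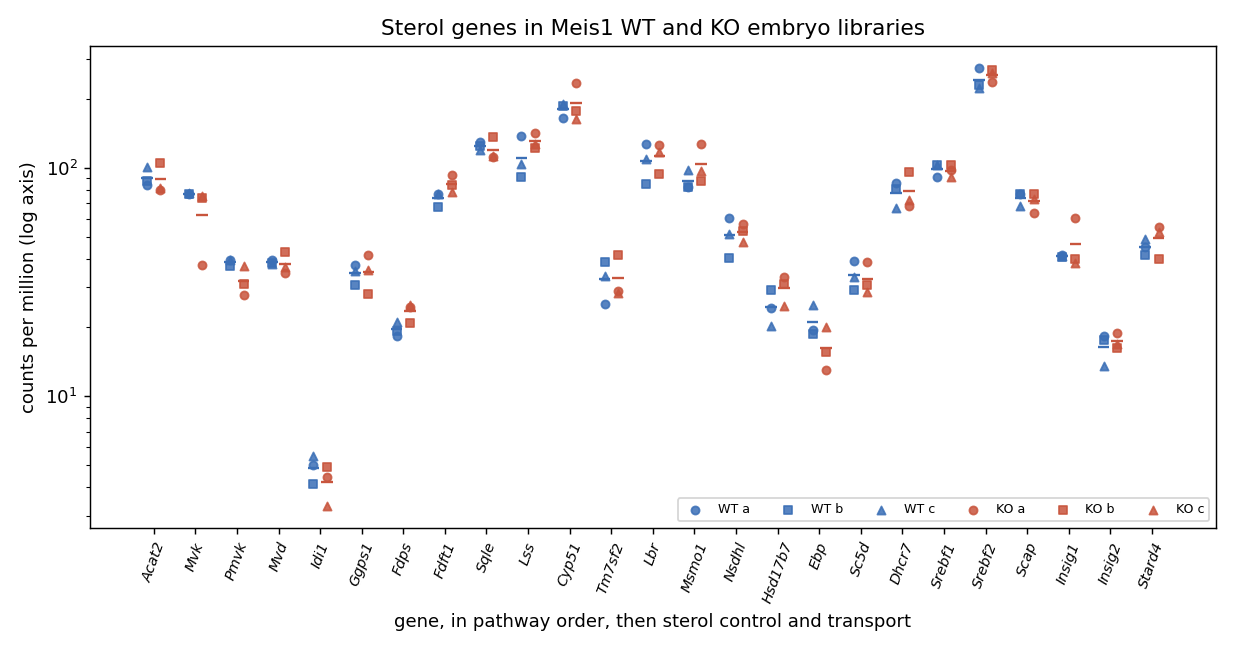
CPM (log axis) of the 25 sterol genes with usable counts in the 3 WT and 3 KO libraries of the Meis1 comparison, in pathway order; points are libraries and short lines are group means. The groups overlap for every gene but Fdft1 and Mvk, and Mvk in KO library a lies far under the other 5 libraries.

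The mevalonate steps were the only role group in which every tested mean was lower in KO, but this rested on KO library a. Their 5 log2 differences lay between -0.31 and -0.02 with a median of -0.22, and 0 of 5 passed the test. Without KO a, 2 of the 5 were above 0 and 3 below, with a median of -0.05. Mvk, the kinase that phosphorylates mevalonate (chromosome 5, 114894278 to 114910600, plus strand, mm9), read 77.0, 76.9 and 77.4 CPM in WT and 37.4, 73.9 and 75.2 CPM in KO. The 3 WT values were nearly identical, and KO library a alone was far below the rest. The coefficient of variation was 34.5% in KO, where counting error alone gives 5.96%, and 0.37% in WT, where counting error alone gives 5.16%. The WT values thus lay closer together than counting error gives, and the gap to KO b and KO c is within that error. Its log2 difference was -0.31 (SE 0.23, unadjusted p = 0.216 in edgeR's quasi-likelihood test), and it was -0.05 without KO library a, with no overlap of the groups by that narrow gap. Pmvk, which adds the next phosphate (chromosome 3, 89263040 to 89272935, plus strand, mm9), had the smallest p of the group. It read 39.5, 37.1 and 39.4 CPM in WT and 27.9, 30.9 and 37.3 CPM in KO. The upper KO value lay just above the lowest WT value, and the log2 difference was -0.27 (SE 0.16, unadjusted p = 0.124 in edgeR's quasi-likelihood test). Without KO library a it was -0.18. Mvd, the decarboxylase that ends these steps, differed by -0.02 and Acat2 by -0.03, both with overlapping groups. Idi1 read 3.31 to 5.46 CPM over the 6 libraries, resting on 16 to 34 counts a library, and differed by -0.22 (SE 0.31).

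Of the 5 prenyl synthases and squalene enzymes, 4 means were higher in KO and 1 lower, and again 0 of 5 passed the test. Without KO a the count was the same, but Ggps1 turned to -0.12 and Sqle to 0.00. Fdps, which makes farnesyl diphosphate, the branch point towards sterols, read 18.3, 19.3 and 21.2 CPM in WT and 24.7, 21.0 and 25.1 CPM in KO. The groups touched, with KO b just under WT c, and the log2 difference was 0.26 (SE 0.18). Ggps1, which makes geranylgeranyl diphosphate for protein prenylation, differed by 0.01 (SE 0.18). Fdft1, squalene synthase and the first enzyme given over to sterols (chromosome 14, 63763990 to 63796630, minus strand, mm9), read 76.8, 67.3 and 76.8 CPM in WT and 93.4, 84.1 and 78.5 CPM in KO. Every KO library lay above every WT library, KO c by a narrow margin. Its log2 difference was 0.21 (SE 0.14, unadjusted p = 0.153 in edgeR's quasi-likelihood test) and 0.14 without KO library a. Lss, which closes the ring into lanosterol, read 138.1, 91.2 and 103.8 CPM in WT and 142.4, 122.6 and 127.0 CPM in KO. WT a lay among the KO libraries while WT b and WT c lay below them, and the log2 difference was 0.24 (SE 0.17), between 0.11 without WT b and 0.42 without WT a. Sqle, the epoxidase that precedes Lss, read 119.8 to 129.8 CPM in WT and 112.0 to 136.6 CPM in KO, a log2 difference of -0.05. The annotated spans of Fdft1 and Ctsb, of Ggps1 and Arid4b, and of Lss and 4930483K19Rik overlap on opposite strands. Since the strand setting of the counting is not stated, reads may be shared.

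Among the 9 ring-modifying genes, 7 means were higher in KO and 2 lower, with a median log2 difference of 0.04, and 0 of 9 passed the test. Without KO a, 4 were higher and 5 lower, with a median of -0.02, as Cyp51, Lbr and Nsdhl turned below 0. Ebp, the isomerase that shifts a ring double bond, had the smallest p of the group (chromosome X, 7762455 to 7770638, minus strand, mm9). It read 19.5, 18.7 and 25.1 CPM in WT and 13.0, 15.7 and 20.1 CPM in KO. KO c lay within the WT range while KO a and KO b lay below it, and the log2 difference was -0.38 (SE 0.23, unadjusted p = 0.126 in edgeR's quasi-likelihood test) and -0.24 without KO library a. Hsd17b7, a sterol ketone reductase, stood at the other end with 24.2, 29.3 and 20.2 CPM in WT and 33.3, 31.1 and 24.9 CPM in KO. KO c fell inside the WT range, and the log2 difference was 0.28 (SE 0.20) and 0.19 without KO library a. Msmo1, a demethylase of the ring, read 82.5, 82.1 and 98.1 CPM in WT and 127.2, 87.5 and 97.4 CPM in KO. Only KO a lay above the WT range, and the log2 difference went from 0.25 (SE 0.17) to 0.08 without that library. Cyp51 read 164.9, 186.1 and 190.3 CPM in WT and 235.8, 177.4 and 163.8 CPM in KO. KO a was again above all the others, and the difference of 0.09 turned to -0.08 without it. The others were nearer still: Nsdhl, which removes a ring carboxyl group, at 0.04, Lbr, a sterol reductase of the nuclear envelope, at 0.07, Tm7sf2, its relative in the endoplasmic reticulum, at 0.01, Sc5d, a desaturase, at -0.05, and Dhcr7, the last reductase, at 0.02. Dhcr7 read 66.7 to 86.0 CPM in WT and 67.8 to 96.3 CPM in KO. Tm7sf2 overlaps 1110014N23Rik on the same strand, so their reads may be mixed.

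Of the 5 control genes, 3 means were higher in KO and 2 lower, with a median of 0.07, and 0 of 5 passed the test. Srebf2 read 274.5, 231.3 and 224.9 CPM in WT and 238.5, 268.7 and 259.9 CPM in KO, a log2 difference of 0.07 (SE 0.13). Srebf1, the relative tied mostly to fatty acid synthesis, read 91.3 to 102.8 CPM in WT and 91.6 to 102.7 CPM in KO, a difference of -0.02. Scap, the escort, differed by -0.05 and Insig2, a retention protein, by 0.08, each with overlapping groups. The spans of Srebf1 and Rai1, and of Scap and 5830462I19Rik, overlap on opposite strands. Insig1, the retention protein that is itself an SREBP target (chromosome 5, 28397952 to 28405201, plus strand, mm9), had the smallest p of the group. It read 41.6, 40.8 and 41.0 CPM in WT and 60.4, 40.0 and 38.3 CPM in KO. KO a stood well above the 5 other libraries, while KO b and KO c lay just under the WT range. The coefficient of variation was 26.6% in KO and 1% in WT, where counting error alone gives 6.92% and 7.06%, so the small gap of KO b and KO c to the WT range is within counting error. The log2 difference of 0.17 (SE 0.19, unadjusted p = 0.401 in edgeR's quasi-likelihood test) turned to -0.07 without KO a. Stard4, which carries cholesterol between membranes, read 41.7 to 48.8 CPM in WT and 40.0 to 55.3 CPM in KO. The difference was 0.12 (SE 0.16), and 0.03 without KO a, its highest library.

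KO library a was often the extreme library for the sterol genes, as it was for genes at large. It was the highest of the 6 libraries for 9 of 25 genes and the lowest for 7, or 36% and 28%, against 26.4% and 26.03% over all genes tested. Against the WT mean, 4 of 25 genes in KO a lay at least 0.5 log2 units away: Msmo1 at 0.54 and Insig1 at 0.55 above, Mvk at -1.03 and Ebp at -0.67 below. That is 16% of the sterol genes, against 23.1% of all genes in the same library. In both other KO libraries the number was 0 of 25, against 10.5% and 8.42% of all genes. The median deviation of the sterol genes was 0.18 in KO a, 0.06 and -0.05 in the other KO libraries, and between -0.04 and 0.04 in the WT libraries. Without KO a, 3 of 25 genes did not overlap between the groups (Fdft1 higher, Mvk and Insig1 lower), 12% against 13.3% of all genes, and the gaps of Mvk and Insig1 are within counting error as given above. Other gene groups differed in KO a too. Low-oxygen genes stood at 9098 CPM as given above, and 10 erythroid markers summed to 1930 CPM against 681 to 1231 CPM in WT. Among 5 neural progenitor markers, Nes stood lower, at 296 CPM against 585 to 798 CPM in WT. Hes5 also stood lower, at 18.1 CPM against 20.6 to 29.1 CPM. Sox2 stood higher, at 67.0 CPM against 42.1 to 57.3 CPM, and Pax6 and Fabp7 lay within their WT ranges. The 4 without Nes summed to 242 CPM, within the WT sums of 213 to 329 CPM. Their part in the values of KO a was not tested.

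**Figure D3:**
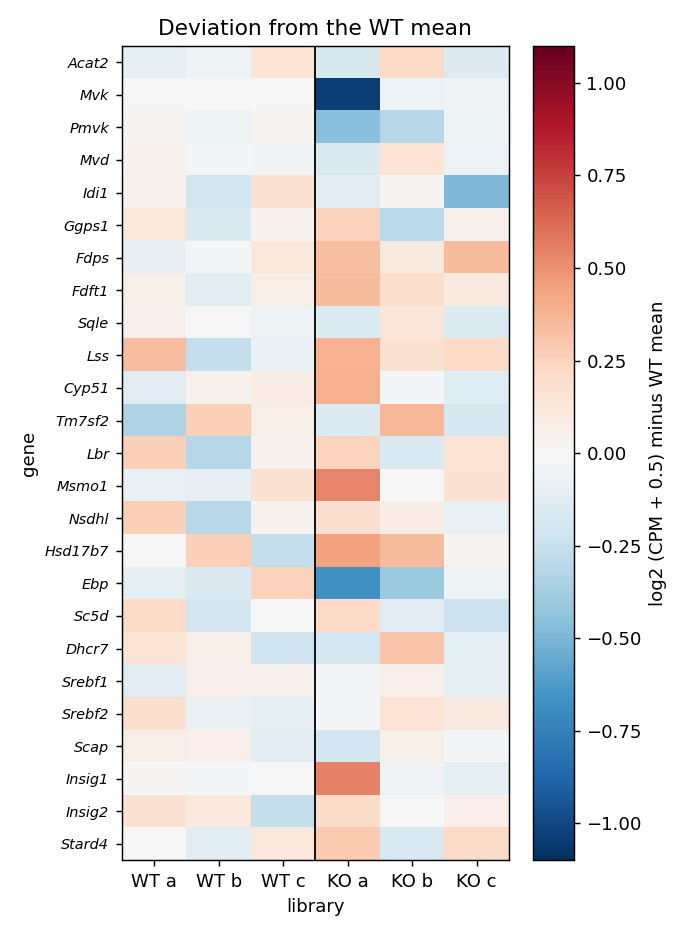
Deviation of each sterol gene from its WT mean, as log2 of CPM plus 0.5, in the 6 Meis1 libraries (columns; WT left of the line, KO right). The darkest cells sit in KO library a, with Mvk at -1.03 and Ebp at -0.67 (blue) and Insig1 at 0.55 and Msmo1 at 0.54 (red).

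The WT libraries varied among themselves as well. Lss, Lbr and Nsdhl were high in WT a and low in WT b. Their deviations from the WT mean were 0.34, 0.26 and 0.27 in WT a and -0.26, -0.31 and -0.30 in WT b. WT b was the highest of the 6 libraries for 0 of the 25 sterol genes, against 18.9% of all genes. From WT a to WT b, 19 of the 25 genes were lower, with a median of -0.06. These libraries also differed in tissue markers. The mesenchyme list summed to 1949 CPM in WT a and 3851 CPM in WT b, the hepatoblast and yolk sac list to 136 and 408 CPM, and the erythroid list to 1231 and 681 CPM. Their part in the sterol values was not tested. The sum over all sterol genes was steady by comparison, at 1678 to 1822 CPM in WT and 1746 to 1861 CPM in KO.

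The second comparison sets the Prep1 hypomorph beside its WT littermate. With 1 library a group there is no test, and the intervals given cover counting error only. The sterol genes read mostly a little lower in the hypomorph: 19 of 25 log2 ratios were below 0, or 76%, against 49.6% of 13780 genes. The 13780 are the genes for which the larger of both counts was at least 20. The median ratio of the sterol genes was -0.19 on the log2 scale, against 0.00 over all genes, and their summed level was 1848 CPM in WT and 1658 CPM in the hypomorph. No sterol gene passed 2-fold, against 2.01% of all genes in the higher direction and 0.464% in the lower. The 95% counting interval lay below 0 for 6 of the 25 genes, against a background of 13.1%, and above 0 for 0, against 11.9%.

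**Figure D4:**
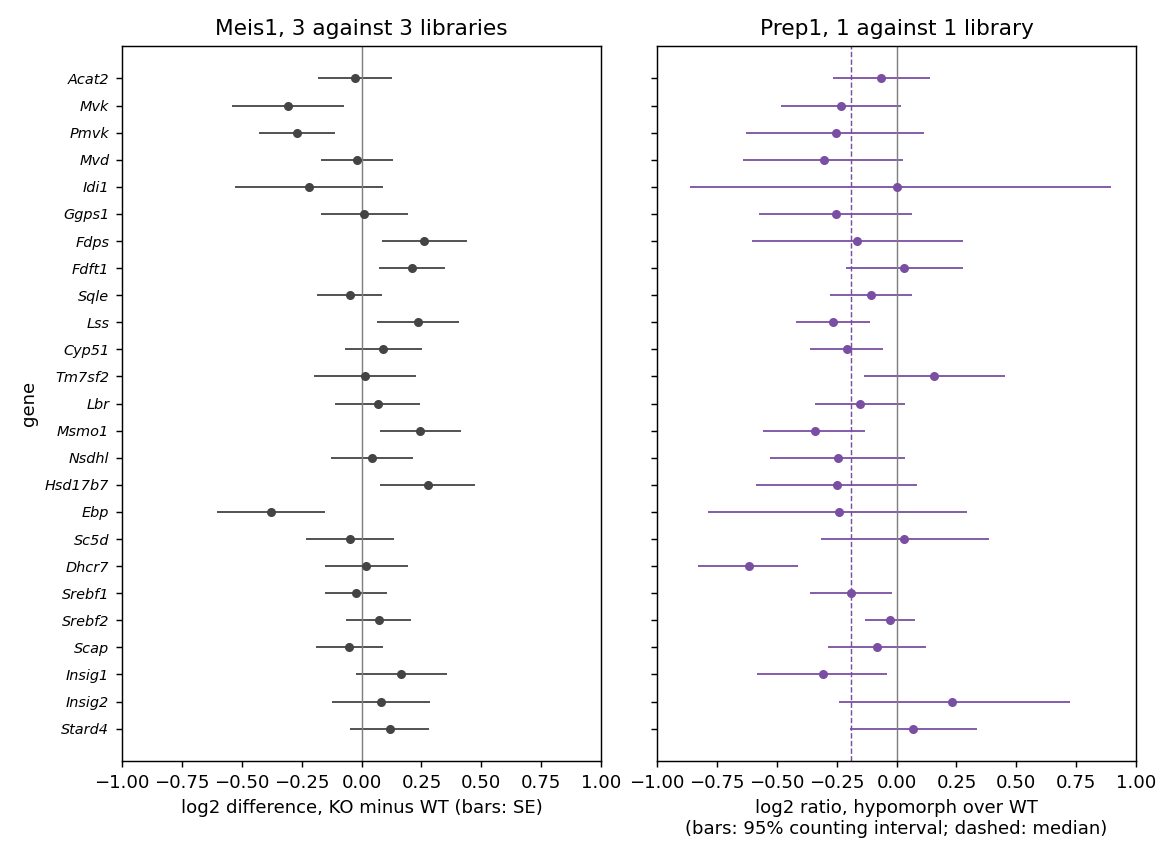
Log2 differences of the 25 sterol genes: left, Meis1 KO minus WT from edgeR with SE bars (3 against 3 libraries); right, Prep1 hypomorph over WT with 95% counting intervals (1 against 1). On the left the values lie on both sides of 0, from -0.38 to 0.28; on the right 19 of 25 lie below 0, the median is -0.19 and Dhcr7 is lowest at -0.62.

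Dhcr7, the enzyme of the last reduction to cholesterol (chromosome 7, 151009050 to 151034315, plus strand, mm9), read 95.7 CPM in Prep1 WT and 62.3 CPM in the hypomorph. This log2 ratio of -0.62 (interval -0.83 to -0.41) was the lowest of the set. It rests on 380 and 370 counts in libraries of unequal depth. The Prep1 WT level lay above the 66.7 to 86.0 CPM of the Meis1 WT libraries and the hypomorph level lay below all 6 Meis1 libraries, though the tables were scaled separately. Msmo1 read 84.4 and 66.5 CPM, a log2 ratio of -0.34 (-0.56 to -0.13). Insig1 read 52.4 and 42.3 CPM, a log2 ratio of -0.31 (-0.58 to -0.04). Both ratios lie well short of 2-fold. Mvd read 35.0 and 28.3 CPM, a log2 ratio of -0.30 whose interval, -0.64 to 0.03, includes 0. Lss at -0.26, Cyp51 at -0.21 and Srebf1 at -0.19 make up the 6 whose intervals lie below 0.

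The later ring steps held 7 of their 9 genes below 0 in the hypomorph, with a median of -0.24. The mevalonate steps held 4 of 5 below 0, with a median of -0.23, and Mvk at -0.23 and Pmvk at -0.25 had intervals that include 0. The control genes had a median of -0.08, and Srebf2, the most deeply counted with 1220 and 1791 counts, was at -0.03 (-0.13 to 0.08). Scap, whose windows hold both TALE cores, read 86.4 and 81.6 CPM, a log2 ratio of -0.08 (-0.28 to 0.12). At the upper end stood Insig2 at 0.23 (-0.24 to 0.72), Tm7sf2 at 0.16 (-0.13 to 0.45), Stard4 at 0.07 and Fdft1 at 0.03, all with intervals that include 0.

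Single libraries of one genotype also differed. Between Meis1 WT libraries the sterol medians differed by -0.06, -0.02 and 0.08, and between KO libraries by -0.09, -0.09 and -0.07. From WT a to WT b 19 of 25 genes were lower, as many as in the hypomorph. The hypomorph median of -0.19 was larger in size than any of these. With a prior count of 2 and the same minimum of 20 counts, no sterol gene passed 2-fold in any of the 6 pairs within a Meis1 group, where 3.02% to 8.20% of all genes did. Mvk in KO a and KO c, at 37.4 and 75.2 CPM, came to 0.998 on the log2 scale, just under the mark, and Idi1 had too few counts in that pair. The Prep1 WT levels lay above the range of the Meis1 WT libraries for 8 genes, below it for 7 and within it for 10. The hypomorph levels lay below all 6 Meis1 libraries for 8 genes and above them for 4. Low-oxygen genes and markers of other tissues differed between the Prep1 libraries. The low-oxygen list summed to 2014 CPM in WT and 2266 CPM in the hypomorph, with 20 of 21 ratios above 0, a median of 0.29 and 11 counting intervals above 0. The hepatoblast and yolk sac list summed to 219 CPM in WT and 599 CPM in the hypomorph, with 12 of 12 ratios above 0. The mesenchyme list summed to 2008 and 2914 CPM, with 7 of 8 above 0, and the erythroid list to 449.7 and 645 CPM, with 10 of 10 above 0. The neuron list summed to 2020 and 2245 CPM, with 9 of 11 ratios above 0. The neural progenitor list summed to 1193 and 1022 CPM, with 4 of 5 ratios below 0 and a median of -0.35. Its counting intervals lay below 0 for 4 genes and above 0 for 1. The macrophage list summed to 66.5 and 98.0 CPM, with 8 of 9 ratios above 0. Their part in the sterol ratios was not tested.

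Neighbouring gene lists were read in the same way. Of 14 genes that process SREBP or turn over sterol proteins in the endoplasmic reticulum, 13 were measured and 0 had an unadjusted p under 0.05 in the Meis1 comparison, with a median of -0.06. Their Prep1 median was -0.03, with 10 of 13 below 0. The ratios ran from -0.22 for Syvn1 (-0.39 to -0.05) to 0.25 for Rnf139 (-0.08 to 0.60). Mbtps2, the protease that frees SREBP, stood at 0.14 (-0.15 to 0.44). Of 13 genes of fatty acid synthesis, 0 passed the same mark, with a median of -0.02. Their Prep1 median was -0.13 with 11 of 13 below 0, and Scd1, the desaturase of stearate, was at -0.30 (-0.51 to -0.10). Of 13 genes that use isoprenoids, 0 passed, with a median of -0.03 in the Meis1 and -0.09 in the Prep1 comparison. Pdss1, which builds the ubiquinone tail, had the lowest Meis1 value at -0.39 (SE 0.22). Rabggtb and Rabggta, the subunits of the enzyme that prenylates Rab proteins, stood at -0.46 and 0.53 in the hypomorph.

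Of 12 genes of sterol uptake, export and storage, 2 had an unadjusted p under 0.05, both higher in KO, against 1.06% of all genes tested in that direction. Vldlr, a lipoprotein receptor, read 18.3, 21.1 and 19.1 CPM in WT and 70.7, 21.2 and 23.2 CPM in KO. KO library a alone carried most of this, and the log2 difference of 0.97 (SE 0.41, unadjusted p = 0.0398 in edgeR's quasi-likelihood test) was 0.19 without it. Soat1, which esterifies cholesterol for storage, read 33.3, 35.0 and 27.8 CPM in WT and 51.6, 44.9 and 34.4 CPM in KO. KO c lay within the WT range, and the log2 difference was 0.45 (SE 0.19, unadjusted p = 0.0364 in edgeR's quasi-likelihood test), or 0.31 without KO a. Neither passed the adjustment over all genes (edgeR adjusted p = 0.9999). In the Prep1 hypomorph the same 2 genes stood at 0.56 (0.26 to 0.89) and 0.34 (0.04 to 0.65), and the list's median was 0.15 with 9 of 11 above 0.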

How the data were processed

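RNA of whole embryos was sequenced as single-end reads of 68 bases per the labels' protocols, and RSEM on genome build mm9 is named in the submitters' processing notes. The sources used here do not give its version, the annotation or the strand setting. In the Meis1 table the authors deposited a signal, the group mean of counts after division by size factors. The ratio of observed to fitted variance, the log2 ratio of group means and the p-value columns of that table are also deposited by the authors. The Prep1 table holds the expected count of each gene in each library, deposited as whole numbers with 0 written as 0.1, beside a log2 ratio that the authors did not scale for depth.

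Whole counts per Meis1 library were worked back from the group means, which hold 1 set of counts for 18893 of 18904 genes within a relative tolerance of 3e-15, and 11 genes of high mean were left out. With wrong step sizes 0% of 2000 genes had an answer. Which sample code belongs to which recovered library is unknown. Counts were tested with edgeR 4.0.16 (quasi-likelihood, TMM, filterByExpr, Benjamini-Hochberg over all 14437 genes) in R 4.3.3. DESeq2 1.42.0, limma-voom 3.58.1, other scaling, no filter and leaving out each library were tried beside it. SE is the log2 difference divided by the root of F. For Prep1, TMM-scaled CPM were compared as ratios (prior count 2) where the larger of both counts was at least 20, with exact conditional binomial intervals at 95%. The count recovery, the edgeR fit and the Prep1 ratios were tested on simulated data. Totals of 4000984 to 6209430 counts set the precision, and genes near 20 counts carry wide intervals.

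The genes form a pathway list defined by symbol, and they, the related lists and the tests were chosen with earlier results of these data known. Genes described in depth are, per role, those with the smallest p and those without overlap of the groups. The genes with the 4 highest and 4 lowest Prep1 ratios are described too. Mvk, Msmo1, Cyp51 and Insig1 in KO library a were chosen after their values were seen. So were the WT spread of Lss, Lbr and Nsdhl, the neural progenitor markers in KO library a and the DESeq2 call Ppbp. Gene coordinates are mm9 as deposited, start-site windows are RefSeq on GRCm38.p6, and the builds were not mixed. A few genes of the pathway are not reported here.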

Additional observations from a re-analysis of the deposited data

How the results depend on the processing

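The count of 0 sterol genes called held under all alternatives tried, and over all genes DESeq2 called 1 (Ppbp, adjusted p = 0.00132 in DESeq2, against 0.38 in edgeR). The sterol median in the Meis1 comparison ran from 0.004 to 0.073 with 1 library left out, highest without WT a, against a standard deviation of 0.047 between the WT medians. Leaving out 1 library kept the sign for 11 of 25 genes and turned it for 14, with log2 differences of -0.165 to 0.050 for Acat2, -0.117 to 0.047 for Mvd, -0.122 to 0.148 for Ggps1, -0.152 to 0.000162 for Sqle, -0.080 to 0.195 for Cyp51, -0.190 to 0.153 for Tm7sf2, -0.072 to 0.207 for Lbr, -0.093 to 0.184 for Nsdhl, -0.188 to 0.062 for Sc5d, -0.152 to 0.117 for Dhcr7, -0.075 to 0.021 for Srebf1, -0.117 to 0.025 for Scap, -0.069 to 0.286 for Insig1 and -0.054 to 0.166 for Insig2. Ggps1 was at -0.005 in limma-voom. Genes at an unadjusted p under 0.05 numbered 123 (without WT c) to 537 (without KO b), 441 without WT a and 394 with no filter, against 225, and the cause was not tested. The values without KO a of the genes that do not overlap and of the signs by role were chosen after seeing the data. In the Prep1 comparison no sterol gene turned its sign or passed 2-fold with scaling by totals, a prior count of 0.5, a minimum of 50 counts or no minimum. Genes near 20 counts, such as Idi1, are limited by depth. No paired analysis was possible because the recovered libraries carry no sample codes and the labels give the groups no shared numbers. The Meis1 sample titles carry codes of 2 kinds, with and without the letter M, and both kinds occur in each group. Whether a kind marks a litter or a batch is not stated, and its part in the values was not tested.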
